A study of Homo sapiens with 9 samples.

Results

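This report covers 10 genes for matricellular proteins in SKMEL-147 melanoma cells: SPP1, EDIL3, SMOC1, SMOC2, SPARC, THBS1, THBS2, TNC, POSTN and TGFBI. They were taken by symbol from the 57736 gene rows deposited for the series, and 8 of them were among the 14614 genes that passed the filter on low counts. The family was chosen by measured values of these data: over the mean of both PHF8 guides against the scrambled control, SPP1 had the highest and EDIL3 the lowest log2 difference of the 10486 genes with a mean normalised count of at least 100. Every difference of a member from the control is therefore given as a description, without a test. Tests are reported for the members only between the 2 PHF8 guides, and for genes outside the family. The choice did not rank genes by the contrast between guides but drew on the same guide libraries. The members' tests are therefore not independent of the choice.

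Matricellular proteins are secreted into the extracellular matrix, where they act less as building material than as signals. They bind integrins and other receptors on the cell surface, bind growth factors and collagens, and change how firmly cells hold to the matrix. In melanoma and other tumours, members such as osteopontin, SPARC, tenascin-C and the thrombospondins are known for their part in adhesion, migration and invasion.

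RNA was measured in SKMEL-147, an established human melanoma cell line, to ask how the transcriptome changes when PHF8 is targeted. PHF8 is a histone demethylase of the Jumonji C class that removes methyl groups from histone H3 lysine 9 and histone H4 lysine 20. There were 9 libraries of rRNA-depleted total RNA in 3 groups of 3, lettered A to C in each group. The sgScr cells carried a guide of scrambled sequence, the sgPHF8-1 cells the first PHF8 guide and the sgPHF8-3 cells another PHF8 guide. By the study's methods all 3 groups were made from melanoma cells that already expressed Cas9 and were then infected with a lentivirus carrying the guide and GFP, so they are infected populations of 1 cell line and not clones, and the control carries Cas9 and virus as well. The study describes these guides as a knockout of PHF8 with CRISPR-Cas9.

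The 2 guides are shown because the tests of the members below are between them. Each is printed with the adjoining bases of the genome, 5′ to 3′, with the PAM, the short motif that Cas9 needs beside its target, in capitals. On GRCh37 the sgPHF8-1 site lay in coding sequence of exon 2 of PHF8 at chrX:54069090-54069112 (plus strand), and the sgPHF8-3 site in coding sequence of exon 21 of 22 at chrX:53966769-53966791 (minus strand).
sgPHF8-1: gtcacactcgatcatgaagcGGG
sgPHF8-3: tcctcctgagcctaaacaagAGG

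PHF8 itself (chrX:53963109-54075391, minus strand) was measured first, as a check of the labels. Its normalised count, the read count divided by a size factor for each library, was 655, 606 and 634 in sgScr, 564, 571 and 565 in sgPHF8-1, and 399.8, 387 and 434 in sgPHF8-3. The 3 groups did not overlap, and every library of either guide was below every control library. PHF8 RNA fell with sgPHF8-3 by 0.63 on the log2 scale (SE 0.058, adjusted p = 2.32e-11) and with sgPHF8-1 by 0.16 (SE 0.055, adjusted p = 0.0253). The call for sgPHF8-1 was lost under 5 of the alternatives, with adjusted p from 0.0210 to 0.123 over all of them. The count covers the whole gene and does not measure the edited sequence or the protein. Here and below, fewer cells that express a gene and less RNA per cell cannot be told apart in RNA of a whole population.

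The sgPHF8-1 sequence also had a close match in PHF2, a related demethylase gene, which was chosen here after its values were seen. The site lay in coding sequence of exon 1 of PHF2 at chr9:96339105-96339127 on GRCh37 (minus strand), followed by the same PAM, and differed from the guide by A4G, counted from the 5′ end of the guide. It is printed with the differing base and the PAM in capitals.
PHF2 site of sgPHF8-1: gtcGcactcgatcatgaagcGGG

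The nearest site of sgPHF8-3 within PHF2 had 6 mismatches. PHF2 counts were 1333, 1446 and 1429.8 in sgScr, 717, 726 and 783 in sgPHF8-1, and 1419.9, 1373 and 1327 in sgPHF8-3. All sgPHF8-1 libraries were below all other libraries, whereas sgPHF8-3 and sgScr overlapped. PHF2 fell with sgPHF8-1 by 0.92 on the log2 scale (SE 0.045, adjusted p = 4.55e-20). With sgPHF8-3 the difference was -0.03 (SE 0.041, adjusted p = 0.670). The test between guides gave -0.89 (SE 0.046, adjusted p = 2.83e-18). PHF2 therefore moved with each difference between the guides reported below, and its part in them was not tested. Within the 10 member genes, the nearest site of either guide followed by NGG had from 5 to 9 mismatches. Only PHF2 and the members were searched, so close sites of either guide in other genes were not looked for.

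Library totals were 17366120 to 19838142 reads. Library B of sgPHF8-1 had reads in 22427 genes, against 23035 to 23229 in the others. Of 7 melanocyte lineage markers, SOX10 was well measured (mean 2771 in sgScr), MITF was at 253, and the pigment genes MLANA and TYR had no read in any library. The 4 markers of dedifferentiated melanoma were all measured, with AXL at a mean of 27921 and NGFR at 11693 in sgScr. Markers of other cell types were mostly near 0 but not all. Of 6 fibroblast markers DCN had no read and PDGFRA and COL3A1 were at means of at most 2.82, whereas LUM was at 300.1, COL1A1 at 72.5 and PDGFRB at 16.6 in sgScr. PTPRC of leukocytes and CDH5 of endothelium were each at a mean of at most 1.77 in every group, and ITGAM, another leukocyte marker, was at 7.82 in sgScr, 6.14 in sgPHF8-1 and 16.8 in sgPHF8-3. Summed over the 4 leukocyte markers the level was 14.9 to 29.0 in sgScr, 14.8 to 18.6 in sgPHF8-1 and 20.1 to 38.2 in sgPHF8-3.

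The values of the members by library were compared with the control without a model or a test, and nothing is read from these counts, since the choice of genes used the same contrasts. With sgPHF8-1 the 3 values of 7 members did not overlap the 3 control values, 1 higher and 6 lower, where this held for 42.2% of all tested genes (21.1% higher and 21.1% lower). With sgPHF8-3 it held for 6 members, 1 higher and 5 lower, against 36.5% (18.7% higher and 17.8% lower). All 6 libraries of both guides stood on one side of the controls for SPP1 (higher) and for EDIL3, SMOC1, SPARC, THBS2 and TGFBI (lower), which held for 22.8% of all genes (11.6% higher and 11.3% lower). The median log2 difference of the 8 members was -0.17 with sgPHF8-1 and -0.23 with sgPHF8-3, beside a median of 0.00 and -0.00 over all tested genes.

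**Figure D1:**
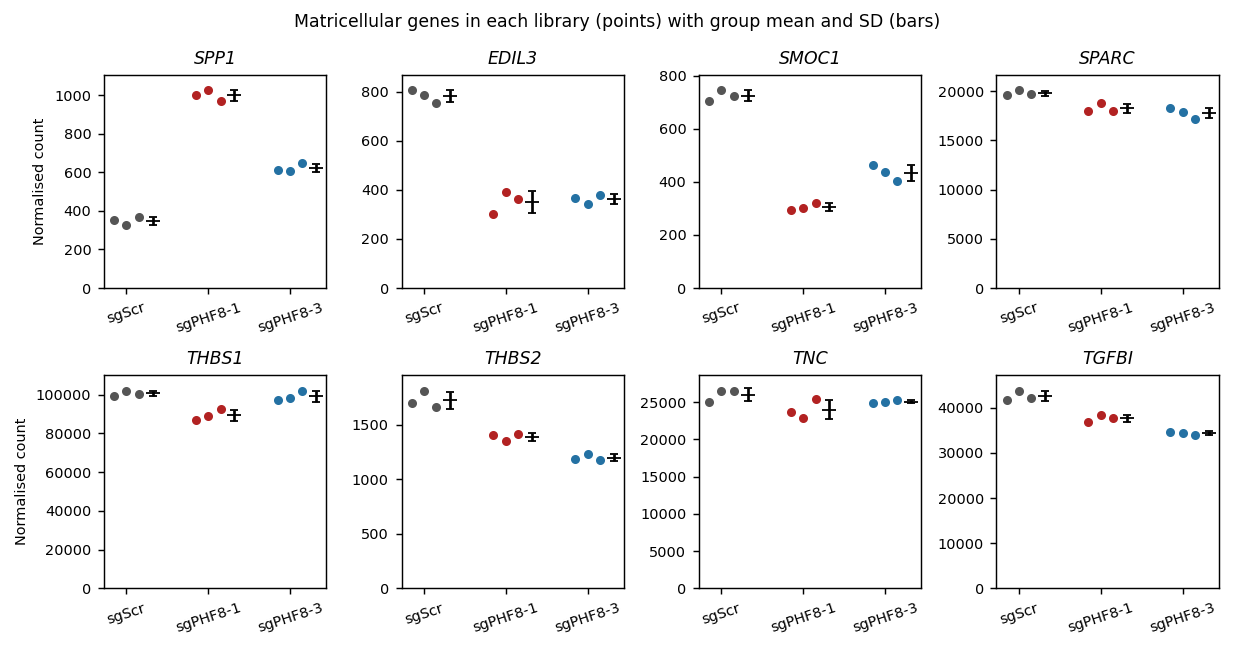
Normalised count (vertical axes from 0) of the 8 measured matricellular genes in each of the 9 libraries, as points by group, with the group mean and SD (n = 3) as bars. SPP1 is the gene with higher values under both guides, and EDIL3 and SMOC1 have the widest gaps below the control.

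SPP1 encodes osteopontin, a secreted phosphoprotein of bone matrix and of many tumours that binds integrins and CD44. The gene lies at chr4:88896819-88904684 on GRCh37 (plus strand) with 7 exons in its canonical transcript. Its counts were 355, 328 and 366 in sgScr, 1004, 1027 and 969 in sgPHF8-1, and 613, 608 and 648 in sgPHF8-3. The groups stood in 3 separate steps, with the control lowest, sgPHF8-3 in the middle and sgPHF8-1 highest. The means were 349.7 ± 19.9, 999.9 ± 28.9 and 623 ± 21.8 (SD, n = 3 each). Against the control SPP1 was 2.86-fold higher with sgPHF8-1 (log2 difference 1.52, SE 0.055) and 1.78-fold higher with sgPHF8-3 (0.83, SE 0.059).

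SPP1 also differed between the guides. It rose by 0.68 on the log2 scale from sgPHF8-3 to sgPHF8-1 (SE 0.050, adjusted p = 3.05e-13), a ratio of 1.61, and this was the highest difference in that direction among the 10486 ranked genes. In the other direction 4 genes were further apart, from TRAF1 at -1.13 (SE 0.12) to RELB at -0.71 (SE 0.071), PHF2 among them. Against the control, the genes next to SPP1 over the mean of both guides, where SPP1 stood at 1.17 (SE 0.050), were the long noncoding RNA UCA1 at 1.10 (SE 0.089) and ANKRD1 at 1.05 (SE 0.064). SPP1 also ranked highest with sgPHF8-1, followed by UCA1 at 1.44. With sgPHF8-3 it ranked 2 from the highest, behind CHAC1 at 0.97 (SE 0.13) and just ahead of ABCC9 at 0.83 (SE 0.10).

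EDIL3 encodes a secreted protein with EGF-like and discoidin-like domains that binds integrins through an RGD motif and is known from the vessel wall. It lies at chr5:83236373-83680698 on GRCh37 (minus strand) with 11 exons. Its counts were 805, 785 and 754 in sgScr, 300.4, 389 and 362 in sgPHF8-1, and 368, 341 and 377 in sgPHF8-3. All 6 PHF8-guide libraries were far below the controls, and the 2 guides overlapped. The means were 781 ± 25.6, 350.5 ± 45.6 and 362 ± 18.8 (SD, n = 3 each).

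EDIL3 stood at 0.447 of the control with sgPHF8-1 (log2 difference -1.16, SE 0.064) and at 0.464 with sgPHF8-3 (-1.11, SE 0.064). The difference between guides was -0.05 (SE 0.074, adjusted p = 0.735), with a 95% interval from -0.20 to 0.10. Over the mean of both guides EDIL3 was at -1.13 (SE 0.054), just below HLA-DQA1 at -1.13 (SE 0.065) and LSAMP at -1.10 (SE 0.062). It ranked lowest with sgPHF8-3 and 5 from the lowest with sgPHF8-1, where HLA-DQA1, LSAMP, SMOC1 and HTRA1 were lower.

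SMOC1 and SMOC2 encode calcium-binding proteins of basement membranes related to SPARC. SMOC1 (chr14:70320848-70499083 on GRCh37, plus strand, 12 exons) had counts of 704, 745 and 725 in sgScr, 294, 302 and 322 in sgPHF8-1, and 464, 438 and 403 in sgPHF8-3. The 3 groups did not overlap and their order was the reverse of that of SPP1. SMOC1 stood at 0.422 of the control with sgPHF8-1 (log2 difference -1.24, SE 0.062) and at 0.600 with sgPHF8-3 (-0.74, SE 0.058). Between guides it was lower with sgPHF8-1 by -0.51 (SE 0.068, adjusted p = 6.75e-07). Its rank from the lowest was 4 over the mean of both guides, 3 with sgPHF8-1 and 10 with sgPHF8-3. SMOC2 (chr6:168841831-169073984, plus strand) had 0 reads in all 9 libraries, where a count of 0 allows up to 3 reads of each library's total.

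SPARC, also called osteonectin, binds collagen and loosens the hold of cells on the matrix. It lies at chr5:151040657-151066536 on GRCh37 (minus strand) with 10 exons. SPARC counts were 19595, 20088 and 19682 in sgScr, 18017, 18822 and 18029.7 in sgPHF8-1, and 18289, 17856 and 17214 in sgPHF8-3. Every PHF8-guide library was below every control, and the guides overlapped. The difference from the control was small, -0.11 (SE 0.029) with sgPHF8-1 and -0.15 (SE 0.029) with sgPHF8-3. Between guides it was 0.04 (SE 0.029, adjusted p = 0.439), with a 95% interval from -0.02 to 0.10.

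Thrombospondins are large secreted glycoproteins that bind CD47, CD36 and integrins. THBS1, which can also activate latent TGF-β, was the most abundant member by read count and lies at chr15:39873280-39891667 on GRCh37 (plus strand, 22 exons). Its counts were 99389.6, 101935 and 100553 in sgScr, 87044, 88756 and 92592 in sgPHF8-1, and 97094, 98070.3 and 102081 in sgPHF8-3. The sgPHF8-1 libraries lay below all others, and sgPHF8-3 overlapped the control. The log2 difference from the control was -0.17 (SE 0.030) with sgPHF8-1 and -0.02 (SE 0.030) with sgPHF8-3. Between guides THBS1 was lower with sgPHF8-1 by -0.15 (SE 0.030, adjusted p = 0.000751).

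THBS2 (chr6:169615875-169654145 on GRCh37, minus strand, 22 exons) went the other way between guides. Its counts were 1699.6, 1812 and 1659.6 in sgScr, 1406, 1346 and 1412 in sgPHF8-1, and 1181, 1233 and 1173 in sgPHF8-3. The groups did not overlap, and sgPHF8-3 was the lowest. The log2 difference from the control was -0.31 (SE 0.039) with sgPHF8-1 and -0.53 (SE 0.040) with sgPHF8-3. Between guides THBS2 was higher with sgPHF8-1 by 0.22 (SE 0.041, adjusted p = 0.000280).

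TNC encodes tenascin-C, a matrix protein of embryonic, wounded and tumour tissue. It lies at chr9:117781854-117880486 on GRCh37 (minus strand, 28 exons). TNC counts were 24969, 26504 and 26554 in sgScr, 23737, 22870.1 and 25427 in sgPHF8-1, and 24899, 24971 and 25280.1 in sgPHF8-3. All 3 groups overlapped. The log2 difference was -0.12 (SE 0.033) with sgPHF8-1 and -0.05 (SE 0.033) with sgPHF8-3. Between guides the difference was -0.06 (SE 0.033, adjusted p = 0.263), with a 95% interval from -0.13 to 0.01.

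TGFBI and POSTN encode the fasciclin-domain proteins of the family, both of which bind integrins and collagen. TGFBI, named for its induction by TGF-β, lies at chr5:135364677-135399507 on GRCh37 (plus strand, 17 exons). Its counts were 41790.3, 43793 and 42192 in sgScr, 36746, 38482 and 37669 in sgPHF8-1, and 34699, 34486 and 33865 in sgPHF8-3. The 3 groups were separate, with sgPHF8-3 lowest. The log2 difference from the control was -0.18 (SE 0.029) with sgPHF8-1 and -0.31 (SE 0.029) with sgPHF8-3. Between guides TGFBI was higher with sgPHF8-1 by 0.13 (SE 0.029, adjusted p = 0.00155). POSTN (chr13:38136720-38172981, minus strand) had 3 reads over all 9 libraries, 1 in sgScr and 2 in sgPHF8-1, so no fold is given.

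**Figure D2:**
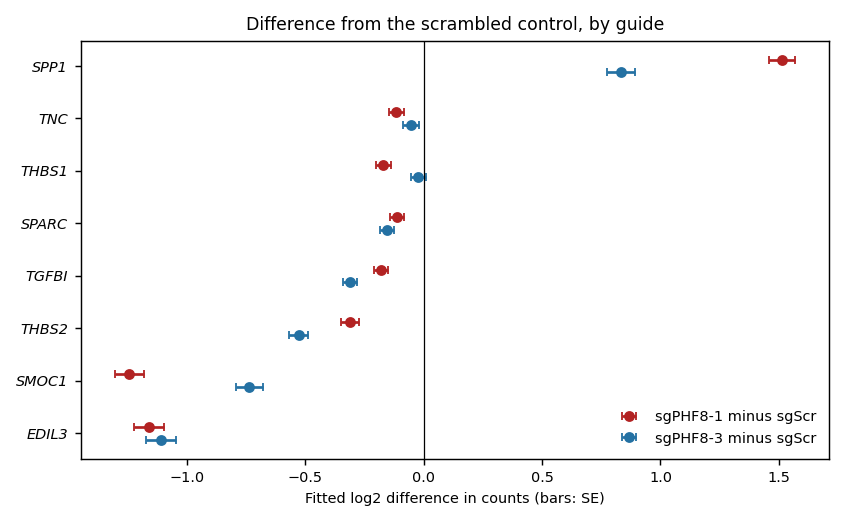
Fitted log2 difference from sgScr (horizontal axis, bars are the SE of the fit) of the 8 measured members for sgPHF8-1 and sgPHF8-3. SPP1 lies at 1.52 and 0.83, EDIL3 at -1.16 and -1.11 and SMOC1 at -1.24 and -0.74, and the other 5 lie between -0.53 and -0.02.

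Between the guides, then, 5 of the 8 tested members passed the threshold of adjusted p below 0.05, 3 higher with sgPHF8-1 (SPP1, THBS2, TGFBI) and 2 lower (SMOC1, THBS1), where 11.2% of all tested genes passed it (5.11% higher and 6.06% lower). The same 5 were the members whose guide groups did not overlap, which held for 25.3% of all genes (12.4% higher and 13.0% lower). Neither share was matched to the members' levels, whose means in sgScr ran from 349.7 (SPP1) to 100626 (THBS1). Between guides the SE was 0.074 for EDIL3 and 0.029 for TGFBI, so smaller differences could pass at the higher counts. The 5 also include SPP1, whose values led to the choice of the family. Nothing is therefore read from the members' counts against these shares. The median log2 difference of the members between guides was -0.01, beside 0.00 over all genes. PHF8 RNA was higher with sgPHF8-1 than with sgPHF8-3 by 0.48 (SE 0.060, adjusted p = 1.73e-07), so the change of PHF8 RNA was larger with sgPHF8-3, and PHF2 was lower with sgPHF8-1. Of the 5 members, SPP1, SMOC1 and THBS1 were further from the control with sgPHF8-1, and THBS2 and TGFBI with sgPHF8-3. The part of PHF8 or PHF2 in the members' differences was not tested.

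**Figure D3:**
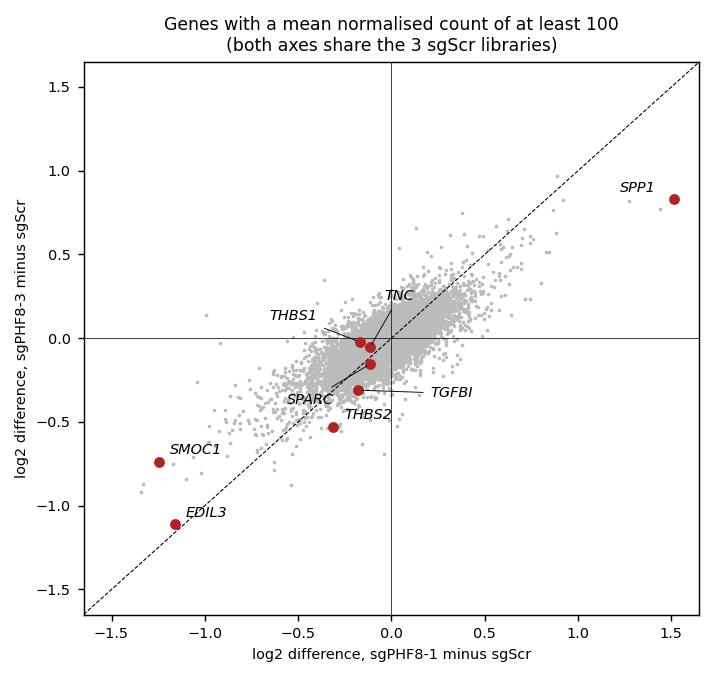
Log2 difference from sgScr with sgPHF8-1 (horizontal) and sgPHF8-3 (vertical) for the 10486 genes with a mean normalised count of at least 100 (grey), with the members in red and equality as a dashed line. The 3 control libraries enter both axes, and SPP1 and EDIL3 lie at opposite ends of the cloud.

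Levels were compared between members per kilobase of canonical transcript, as normalised count per kb. In sgScr the order was TGFBI (15705 ± 391), THBS1 (12919 ± 164), SPARC (5734 ± 76.3), TNC (3059.9 ± 106), THBS2 (302 ± 13.8), SPP1 (224 ± 12.8), SMOC1 (197 ± 5.57) and EDIL3 (162 ± 5.32), each as mean ± SD of 3 libraries. Among these 8 genes the widest step was that from TNC to THBS2, which differed 10.1 times, and POSTN and SMOC2 were at or near 0. Neighbours in this order were apart by at least 5.66 times the larger SD, except SPP1 and SMOC1, which were apart by 2.12 times. With sgPHF8-1 the level of SPP1 was 641 ± 18.5 per kb, above THBS2 at 243 ± 6.40, while SMOC1 was at 83.2 ± 3.94 and EDIL3 at 72.8 ± 9.47. With sgPHF8-3 SPP1 was at 399 ± 14.0, THBS2 at 209.7 ± 5.70, SMOC1 at 118 ± 8.29 and EDIL3 at 75.3 ± 3.90. THBS1 alone took 0.539 to 0.551% of all reads in sgScr, 0.467 to 0.500% in sgPHF8-1 and 0.521 to 0.556% in sgPHF8-3.

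**Figure D4:**
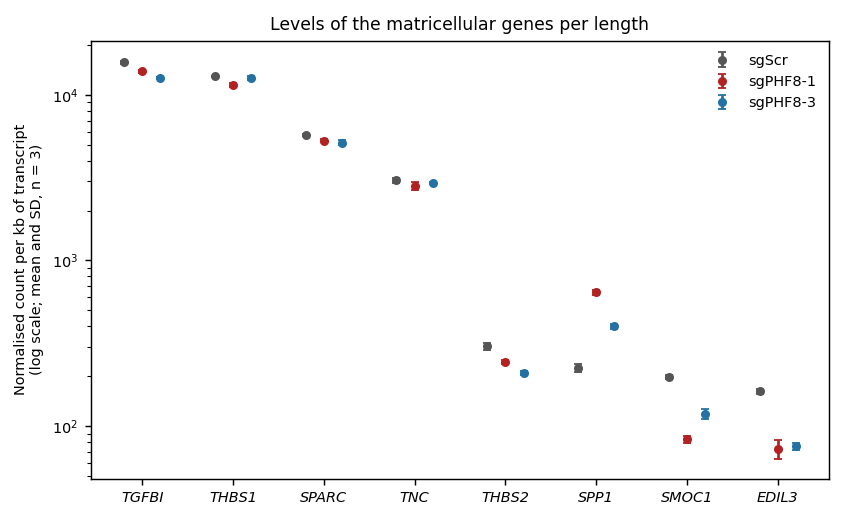
Normalised count per kb of canonical transcript (log axis) of the 8 measured members, as mean and SD of the 3 libraries of each group. SPP1 passes THBS2 under both PHF8 guides, from 224 per kb in sgScr to 641 and 399.

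Several members share exons with genes annotated on the opposite strand, and the strand setting of the counting is not given in the sources used here. These were EDIL3-DT at EDIL3, CLMAT3 at SPARC, FSIP1 and THBS1-AS1 at THBS1, THBS2-AS1 at THBS2, DELEC1 at TNC and an unnamed gene at SPP1. Reads from such a pair cannot be told apart without strand. None was annotated over exons of SMOC1, SMOC2, POSTN or TGFBI.

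The promoters of the 4 members with the largest differences from the control are printed because PHF8 is a chromatin enzyme and because these genes went in opposite directions. RefSeq promoter sequences of GRCh38.p14, 250 bases before to 50 after the annotated start, were matched for all 10 members, and capitals mark a motif match. The windows are chr4:87975464-87975763 for SPP1 (plus strand), chr5:84384831-84385130 for EDIL3 (minus strand), chr14:69879166-69879465 for SMOC1 (plus strand) and chr6:169253797-169254096 for THBS2 (minus strand).
SPP1: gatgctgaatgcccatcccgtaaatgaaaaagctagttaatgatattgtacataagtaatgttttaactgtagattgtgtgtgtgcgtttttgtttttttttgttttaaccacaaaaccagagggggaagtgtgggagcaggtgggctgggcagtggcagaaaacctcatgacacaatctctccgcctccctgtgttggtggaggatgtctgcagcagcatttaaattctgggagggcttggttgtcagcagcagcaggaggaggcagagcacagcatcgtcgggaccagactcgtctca
EDIL3: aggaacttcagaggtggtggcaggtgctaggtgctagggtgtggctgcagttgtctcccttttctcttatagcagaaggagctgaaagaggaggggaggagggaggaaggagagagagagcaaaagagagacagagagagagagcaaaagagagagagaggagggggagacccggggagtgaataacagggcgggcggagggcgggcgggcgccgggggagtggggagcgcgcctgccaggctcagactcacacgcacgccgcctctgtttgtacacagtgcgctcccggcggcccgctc
SMOC1: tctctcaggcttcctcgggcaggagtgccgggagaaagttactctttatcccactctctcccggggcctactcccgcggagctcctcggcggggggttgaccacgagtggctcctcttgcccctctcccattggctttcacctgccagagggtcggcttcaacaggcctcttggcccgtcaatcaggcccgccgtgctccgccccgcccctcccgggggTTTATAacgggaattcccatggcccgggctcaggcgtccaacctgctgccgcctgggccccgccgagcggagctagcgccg
THBS2: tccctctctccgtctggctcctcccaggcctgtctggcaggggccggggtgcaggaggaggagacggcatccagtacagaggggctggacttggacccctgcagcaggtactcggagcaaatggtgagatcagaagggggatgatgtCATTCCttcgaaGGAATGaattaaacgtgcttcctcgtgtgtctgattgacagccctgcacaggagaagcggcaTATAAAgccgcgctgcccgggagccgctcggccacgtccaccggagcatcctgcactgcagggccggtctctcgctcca

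The SPP1 window held 6 CpG dinucleotides and 47.7% G+C, and 33.7% of the 35116 RefSeq promoters held fewer CpG. EDIL3 held 16 CpG (62.7% G+C), SMOC1 24 (67.7%) and THBS2 17 (61.7%), beside a median of 14 CpG and 58.7% G+C over all promoters. On both strands, 5 motifs were searched: AP-1 (TGANTCA, in 7.71% of all promoters), an E-box (CACGTG, 7.26%), a TATA box (TATAAA, 11.5%), a cyclic AMP response element (TGACGTCA, 1.85%) and the TEAD motif (GGAATG, 14.0%). RefSeq lists a further EDIL3 start whose window overlaps the one printed, with 17 CpG and 64.0% G+C. None of the motifs was in the SPP1 window or in either EDIL3 window. SMOC1 held a TATA box match 31 bases before the start, in reverse orientation. THBS2 held a TATA box match 29 bases before the start and TEAD matches 103 and 91 bases before it. SPARC and THBS1 each held 1 TEAD match, and POSTN an AP-1 match and 2 TATA box matches.

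Among the 5 genes whose pattern over the 9 libraries was most like that of SPP1, by Pearson correlation of log2(normalised count + 1) over 10486 genes, were TFRC (0.995), AOX1 (0.993), RHOBTB3 (0.992) and CCDC80 (0.991). Their steps were smaller than that of SPP1. CCDC80, the widest of them, was at 0.83 with sgPHF8-1 and 0.51 with sgPHF8-3. Most like EDIL3 were TMX4 (0.996), SLC26A2 (0.994), SPTSSA (0.990), KCNN4 (0.985) and PHLDA1 (0.984), with TMX4 at -0.51 and -0.46. Ranked by Spearman correlation instead, 0 of the 5 genes for SPP1 and 1 of the 5 for EDIL3 were still among the top 5. A Pearson coefficient of 0.95 or more was reached by 125 genes for SPP1 and by 95 for EDIL3. The 9 points fall into 3 groups and share their libraries and size factors, so these coefficients follow the group means and are given without a test.

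Outside the family, the CCN genes are a further class of matricellular protein, and CCN1 and CCN2 are known targets of YAP and TEAD. Of 6 CCN genes 3 were tested, and all 3 rose with each guide (median log2 difference 0.32 and 0.26). Over all tested genes 15.5% rose and 15.7% fell with sgPHF8-1 (31.2% called), 9.89% rose and 10.1% fell with sgPHF8-3 (20.0% called), and 6.72% rose and 7.48% fell with both. Over the mean of both guides 30.0% were called (15.1% higher and 14.9% lower). CCN2 (CTGF) had means of 1807 ± 47.9 in sgScr, 2259 ± 29.3 in sgPHF8-1 and 2348 ± 78.8 in sgPHF8-3, and rose by 0.32 (SE 0.035, adjusted p = 6.28e-10) and 0.38 (SE 0.034, adjusted p = 2.30e-11). CCN1 (CYR61) rose by 0.26 with sgPHF8-3 (SE 0.039, adjusted p = 5.87e-05) and by 0.12 with sgPHF8-1 (SE 0.039, adjusted p = 0.0256). CCN3 (NOV) rose by 0.43 with sgPHF8-1 (SE 0.068, adjusted p = 3.18e-06) and by 0.22 with sgPHF8-3 (SE 0.070, adjusted p = 0.0192). The smaller change of CCN1 (sgPHF8-1) and of CCN3 (sgPHF8-3) was lost when some single libraries were left out, including sgScr B or sgScr C, with adjusted p up to 0.135 and 0.144. The first was also lost with the replicate block (adjusted p = 0.0663) and the other with DESeq2 (adjusted p = 0.0961).

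Closer relatives of the members were mostly at low counts. Of 16 such genes (among them IBSP, SPARCL1, THBS4 and COMP) 5 were tested, 1 rose with sgPHF8-1 and 2 fell with sgPHF8-3, and none passed in the same direction under both guides, beside 15.5% of all genes that rose with sgPHF8-1 and 10.1% that fell with sgPHF8-3. FSTL1, which shares a domain with SPARC, rose by 0.14 with sgPHF8-1 (SE 0.034, adjusted p = 0.00123). MFGE8, the closest relative of EDIL3 in domain structure, fell by 0.17 with sgPHF8-3 (SE 0.047, adjusted p = 0.00867), and THBS3 fell by 0.34 with sgPHF8-3 (SE 0.11, adjusted p = 0.0270), but both calls were lost with DESeq2 (adjusted p = 0.0517 and 0.134).

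The receptors through which these proteins act changed in both directions. Of 19 receptor genes 13 were tested. With sgPHF8-1 3 rose and 6 fell, and with sgPHF8-3 2 rose and 8 fell (median -0.03 and -0.17), of which 2 rose and 5 fell under both. Over all genes 15.5% rose and 15.7% fell with sgPHF8-1, 9.89% and 10.1% with sgPHF8-3, and 6.72% and 7.48% with both. ITGB8, an integrin subunit that activates TGF-β, had means of 9369 ± 233 in sgScr, 6725 ± 94.5 in sgPHF8-1 and 7361 ± 180.4 in sgPHF8-3, and fell by 0.48 (SE 0.030, adjusted p = 8.90e-17) and 0.35 (SE 0.030, adjusted p = 3.73e-12). SDC4, a heparan sulphate proteoglycan of focal adhesions, fell by 0.34 and 0.39 (SE 0.032 each, adjusted p = 2.64e-11 and 1.45e-12). The integrin subunits ITGA3 (by 0.22 and 0.23) and ITGB5 (by 0.19 and 0.17) also fell under both guides (SE 0.029 to 0.032, adjusted p at most 0.000181). ITGAV, the partner of ITGB5 and ITGB8, rose by 0.19 with sgPHF8-1 (adjusted p = 6.34e-06) and by 0.09 with sgPHF8-3 (adjusted p = 0.0437), the last of which was lost under 10 alternatives. CD44, a receptor of osteopontin, fell with sgPHF8-3 by 0.09 (SE 0.030, adjusted p = 0.0350), a call lost without any 1 of 5 libraries, and was at -0.03 with sgPHF8-1 (adjusted p = 0.466). The falls of ITGB3 and LRP1 with sgPHF8-3 were lost with DESeq2 (adjusted p = 0.0871 and 0.0639) and without some single libraries.

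Enzymes that cut, cross-link or phosphorylate matricellular proteins changed in both directions. Of 10 genes 8 were tested, and MMP3 is kept out of the counts because it was near the floor in sgScr and passed the filter only through the groups where it was higher. Of the other 7, 2 rose and 5 fell with sgPHF8-1, 2 rose and 4 fell with sgPHF8-3, and 2 rose and 4 fell with both, where 15.5% and 15.7%, 9.89% and 10.1%, and 6.72% and 7.48% of all genes did so. The smaller of the rises, that of TGM2, a cross-linking enzyme, was 0.21 with sgPHF8-1 (adjusted p = 3.09e-06) and 0.10 with sgPHF8-3 (adjusted p = 0.0319), the last of which was lost under 6 alternatives. FAM20C, the secretory kinase that phosphorylates osteopontin, had means of 3043 ± 39.1 in sgScr, 1681 ± 27.3 in sgPHF8-1 and 2085 ± 31.5 in sgPHF8-3. It fell by 0.86 (SE 0.033, adjusted p = 6.81e-24) and 0.55 (SE 0.032, adjusted p = 1.16e-16), and was lower with sgPHF8-1 than with sgPHF8-3 by -0.31 (SE 0.034, adjusted p = 1.04e-08). MMP2, a gelatinase, fell by 0.28 (SE 0.051, adjusted p = 0.000240) and 0.51 (SE 0.053, adjusted p = 1.87e-07). ADAMTS1, a protease that cuts proteoglycans and thrombospondins, rose by 0.42 (SE 0.040, adjusted p = 5.41e-09) and 0.34 (SE 0.040, adjusted p = 7.07e-07). MMP3, a stromelysin that cuts osteopontin, was at 4.07 ± 0.587 in sgScr, 86.0 ± 7.56 in sgPHF8-1 and 16.7 ± 2.49 in sgPHF8-3, given as values with no test.

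TGF-β induces several members, TGFBI among them. Of 6 ligands and receptors tested, none rose, 3 fell with sgPHF8-1 and 2 fell with sgPHF8-3, and TGFB1 and TGFBR1 fell under both (median of the list -0.28 and -0.20), beside 15.7%, 10.1% and 7.48% of all genes that fell. TGFB1 had means of 258 ± 20 in sgScr, 167 ± 11.1 in sgPHF8-1 and 149.5 ± 2.4 in sgPHF8-3, and fell by 0.63 (SE 0.088, adjusted p = 2.51e-07) and fell by 0.79 (SE 0.090, adjusted p = 6.08e-09). TGFBR1 had means of 4569 ± 102, 2751 ± 99.3 and 3644 ± 58.7, and fell by 0.73 (SE 0.032, adjusted p = 1.10e-21) and 0.33 (SE 0.031, adjusted p = 9.84e-11). TGFBR1 was lower with sgPHF8-1 than with sgPHF8-3 by -0.41 (SE 0.033, adjusted p = 4.04e-12).

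**Figure D5:**
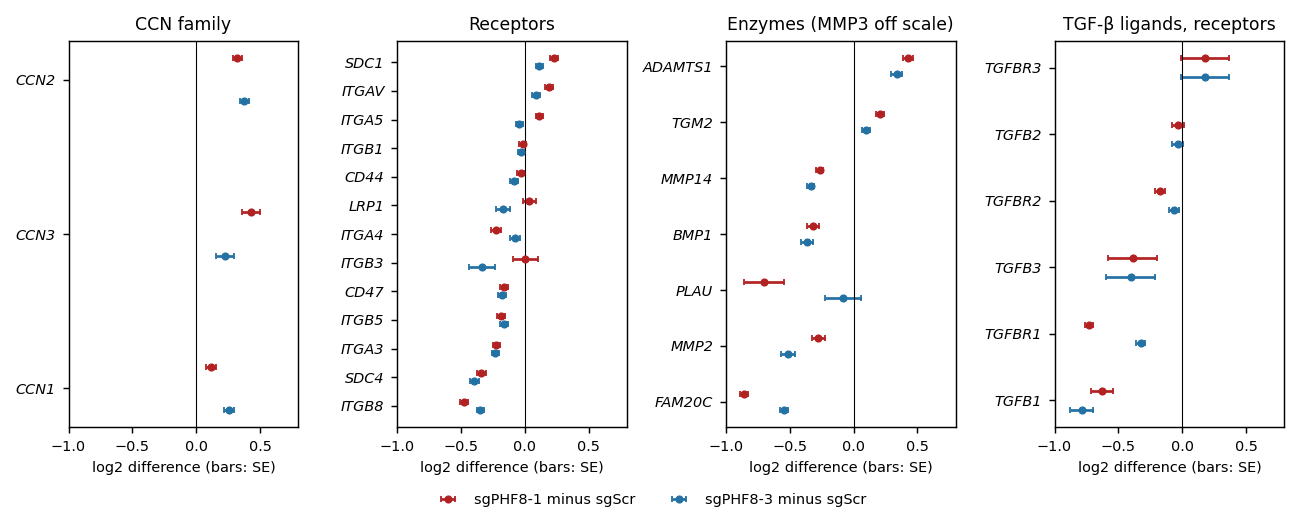
Fitted log2 difference from sgScr (horizontal axes, bars are the SE of the fit) for each tested CCN gene, receptor, enzyme and TGF-β gene, in red for sgPHF8-1 and blue for sgPHF8-3. The 3 CCN genes lie above 0 under both guides, FAM20C and TGFBR1 lie further below 0 with sgPHF8-1, and MMP3 is beyond the scale and not drawn.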

How the data were processed

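RNA of 9 SKMEL-147 cultures (3 biological replicates a group by the study's methods) was depleted of rRNA, sequenced as paired-end reads and aligned by the authors to hg19 with STAR, and their processing notes also name HTSeq, Picard and DESeq2. The deposited raw table holds read counts per Ensembl gene. The deposited normalised table is a signal, the same counts divided by 1 size factor per library, and all 57736 rows gave whole reads within 0.01 read when multiplied back. No row without a gene was found to enter the totals.

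The counts were tested with edgeR 4.0.16 in R 4.3.3 (quasi-likelihood test, TMM scaling, filterByExpr, robust fit over all 9 libraries), with Benjamini-Hochberg adjustment over 14614 genes and a threshold of 0.05. Log2 differences, their SE and 95% intervals come from this fit, and the test was tried on simulated data. Intervals and the floor of 3 reads cover counting or replicate error only. The sources used here do not say whether the replicates of a group came from separate infections. The fitted common spread of replicates beyond counting was small (2.87%). Intervals and p-values may therefore not cover the spread between infections. Alternatives used DESeq2 1.42.0, RLE scaling, no filter, limma 3.58.1 on log2(normalised count + 1), a replicate block, the compared groups alone and each library left out. Gene positions and lengths come from GENCODE on GRCh37 and promoters from RefSeq on GRCh38.p14.

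The members and lists were chosen with earlier results of these data known. Genes named were the 10 members, PHF8, the genes ranked next to SPP1 and EDIL3, the 5 most like each, and in each list up to 4 genes called in the same direction under both guides with the largest mean change. PHF2, FSTL1, MFGE8, THBS3, ITGAV, CD44, ITGB3, LRP1, TGM2, TRAF1, RELB and the marker genes were named after their values were seen. Proteins were not printed, and PECAM1 was not used here. The main fit did not pair libraries of the same letter, and the labels do not say whether they belong together. One gene that the likeness rule chose is not reported here.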

Additional observations from a re-analysis of the deposited data

Results flagged for a closer look

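The effect of the guides differed for 5 members, by the edgeR test of sgPHF8-1 against sgPHF8-3 itself. As log2 differences, sgPHF8-1 minus sgPHF8-3, SPP1 was at 0.68, THBS2 at 0.22 and TGFBI at 0.13, with all 3 sgPHF8-1 libraries above all 3 sgPHF8-3 libraries for each. SMOC1 was at -0.51 and THBS1 at -0.15, with all 3 sgPHF8-1 libraries below. PHF8 differed too, by 0.48, and so did PHF2, which holds a site 1 base away from the sgPHF8-1 sequence, by -0.89. Whether PHF2 had a part in the members' differences was not tested.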

How the results depend on the processing

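Of 472 log2 differences of the members under the alternatives, 1 changed sign. This was EDIL3 between guides, which ranged from -0.13 to 0.050 in leave-one-out fits, and changed sign without sgPHF8-1 A (0.050, edgeR adjusted p = 0.780). TNC passed the threshold between guides without sgPHF8-1 C (-0.11, adjusted p = 0.0328), and no other member crossed it between guides. The cause was not tested. With DESeq2, 3095 genes were called with sgPHF8-1, 1706 with sgPHF8-3, 915 between guides and 2849 over the mean. By edgeR the counts were 4556, 2921, 1632 and 4389. Leaving out each library gave 3656 to 4699 genes called with sgPHF8-1, 2042 to 3520 with sgPHF8-3, 1022 to 1611 between guides (1022 without sgPHF8-3 B and 1054 without sgPHF8-3 C) and 3261 to 4505 over the mean. Ranking by Spearman kept 0 of the 5 genes most like SPP1 and 1 of 5 for EDIL3. The replicate block gave 4456, 2830, 1601 and 4317 genes called with sgPHF8-1, with sgPHF8-3, between guides and over the mean, with 5 members called between guides as without it. It ended the call of CCN1 with sgPHF8-1 and between guides, and those of ITGAV and EGFR with sgPHF8-3. Deviations of same-letter libraries correlated from -0.18 to 0.13 over 9 pairs, and those of different letters from -0.22 to 0.29. These values cannot show whether libraries of the same letter were prepared together, and the labels do not say. For the lists, alternatives chosen after seeing the data ended the call in 108 of 1222 refits of called genes and reversed 0. The alternative with only the groups compared was not run for the mean of both guides, which uses all groups. Depth limits SMOC2 and POSTN, for which no fold can be given.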

Other observations

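RUNX2, a transcription factor of bone formation that is also known to act at the SPP1 gene, fell with both guides, and its part in the SPP1 difference was not tested. Its normalised counts had means of 296 ± 8.05 in sgScr, 189 ± 9.62 in sgPHF8-1 and 230.5 ± 22.4 in sgPHF8-3, and it fell by 0.65 (SE 0.083, edgeR adjusted p = 3.98e-08) and 0.37 (SE 0.080, adjusted p = 0.000728). The other osteoblast markers were near or at 0, with BGLAP at a mean of at most 1.7 and SP7 without a read. The 4 bone-matrix relatives of SPP1 near it on chromosome 4, IBSP, DMP1, DSPP and MEPE, did not pass the filter on low counts.

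Of the 4 dedifferentiated and 2 lineage markers tested, NGFR and SOX10 fell under both guides and none rose under both. Over all tested genes 7.48% fell and 6.72% rose with both. NGFR had means of 11693 ± 261 in sgScr, 7199 ± 173 in sgPHF8-1 and 9570 ± 464 in sgPHF8-3. It fell by 0.70 (SE 0.032, edgeR adjusted p = 2.74e-21) and 0.29 (SE 0.031, adjusted p = 1.81e-09). SOX10 fell by 0.18 (adjusted p = 1.74e-05) and 0.11 (adjusted p = 0.00831), the last of which was lost without sgScr A (adjusted p = 0.0631). SOX9 rose by 0.25 with sgPHF8-1 (adjusted p = 0.00926), a call lost with DESeq2 (adjusted p = 0.0587) and without sgScr C (adjusted p = 0.0934). EGFR rose by 0.10 with sgPHF8-3 (adjusted p = 0.0436), a call lost under 9 alternatives with adjusted p up to 0.308. AXL (-0.015 and 0.07) and MITF (-0.14 and 0.14) did not pass with either guide, and the median over the 4 dedifferentiated markers was -0.04 and 0.07.

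Summed over the 6 fibroblast markers, the level was 376 to 426 in sgScr, 392 to 429 in sgPHF8-1 and 319.8 to 364 in sgPHF8-3, and over the endothelial markers VWF and CDH5 it was at most 9.22 in any library. PDGFRB had means of 16.6 in sgScr, 4.53 in sgPHF8-1 and 11.2 in sgPHF8-3, low counts that passed the filter through the groups where they were higher and are given with no test. LUM fell by 0.25 with sgPHF8-3 (adjusted p = 0.0183), a call lost with DESeq2 (adjusted p = 0.0977) and without any 1 of 3 libraries.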
